A study of Mus musculus with 8 samples.

Results

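The genes described here are 10 members of the transforming growth factor (TGF) beta and bone morphogenetic protein (BMP) signalling pathway, measured by RNA-seq in the livers of male mice. They were taken by symbol from the 24940 genes counted: the ligands *Tgfb1*, *Tgfb2* and *Tgfb3*, the latent binding protein *Ltbp1*, the receptors *Tgfbr1* and *Tgfbr2*, the ligand *Bmp2*, the pseudoreceptor *Bambi* and the inhibitory Smads *Smad6* and *Smad7*. FxrKO livers (n = 4, Bcl6(fl/fl), FXR(homo)) were set against Bcl6LKOFxrKO livers (n = 4, the same alleles with Alb-Cre), all on the C57BL/6 strain. By these labels both groups lacked FXR, the bile acid-sensing nuclear receptor, and carried the floxed *Bcl6* allele. That FXR was lost in the whole body is the study's description. The *Albumin-Cre* transgene, which acts in hepatocytes, was in the double knockout alone, so loss of BCL6, a transcriptional repressor, and the presence of Cre cannot be told apart. The comparison asks what loss of *Bcl6* in hepatocytes changed in livers that already lacked FXR. The ages of the mice are not given in the sources used here, and no livers with intact FXR were analysed here.

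TGF beta is secreted in a latent complex, tethered to the matrix by latent TGF beta binding proteins, and once released it brings together the type II receptor TGFBR2 and the type I receptor TGFBR1, which phosphorylate SMAD2 and SMAD3. BMP ligands act through related receptors on SMAD1, SMAD5 and SMAD9, and both arms share SMAD4. SMAD6 and SMAD7 are inhibitory Smads that feed back on the receptors, SMAD6 mainly on the BMP arm, and BAMBI is a receptor-like protein without a kinase that dampens TGF beta signals. In the liver, TGF beta is known for driving stellate cells to make matrix, and BMP2 and BMP6 from endothelial cells for switching on hepcidin in hepatocytes.

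The 8 livers had between 7586241 and 11839503 counts on genes. *Bcl6* ran from 21.2 to 65.2 CPM (counts scaled to library size) in FxrKO livers and from 4.61 to 11.9 CPM in Bcl6LKOFxrKO livers, without overlap. The FXR gene *Nr1h4* was counted in every liver, at 56.7 to 62.6 CPM in FxrKO livers and 39.4 to 48.1 CPM in Bcl6LKOFxrKO livers, so its loss rests on the labels. All 9 hepatocyte markers measured were above 0 in every liver. The 50 most counted genes of each liver took 31.2% to 32.6% of its counts in FxrKO livers and 41.7% to 45.1% in Bcl6LKOFxrKO livers. Albumin (*Alb*) rose from 44554 to 135488 CPM, so CPM here are scaled by TMM, which sets library size from genes near the middle of the distribution.

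Of the 10 genes, 9 had enough counts to be tested, and 6 of them were higher in Bcl6LKOFxrKO livers: *Smad6*, *Ltbp1*, *Tgfbr2*, *Tgfb1*, *Tgfb3* and *Bmp2*. None was lower, at an adjusted p under 0.05 or at an unadjusted p under 0.05, and DESeq2 and limma voom also called 0 lower. Across the 12340 genes tested, 16.2% were called higher and 13.5% lower, at an adjusted p under 0.05 in edgeR's quasi-likelihood test. These were 1994 and 1665 genes, and 1404 and 2949 with libraries scaled by total counts alone, a scaling under which 2 members were called higher and 0 lower. The median log2 fold change (Bcl6LKOFxrKO over FxrKO) was 0.62 over the 9 tested members and 0.01 over all tested genes. *Smad6* had the largest fold change and the smallest p of the 9, at rank 723 among all tested genes. *Tgfbr1*, *Bambi* and *Smad7* were not called, and *Tgfb2* was not tested. In 6 of the tested members every Bcl6LKOFxrKO liver was above every FxrKO liver, against 16.1% of all tested genes separated in this direction and 15.2% in the other. The 6 members separated this way were not the 6 called, since *Bambi* was separated without a call and *Bmp2* was called with overlapping groups. In whole liver, a change in the number of cells of a type and a change in RNA per cell cannot be told apart.

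**Figure D1:**
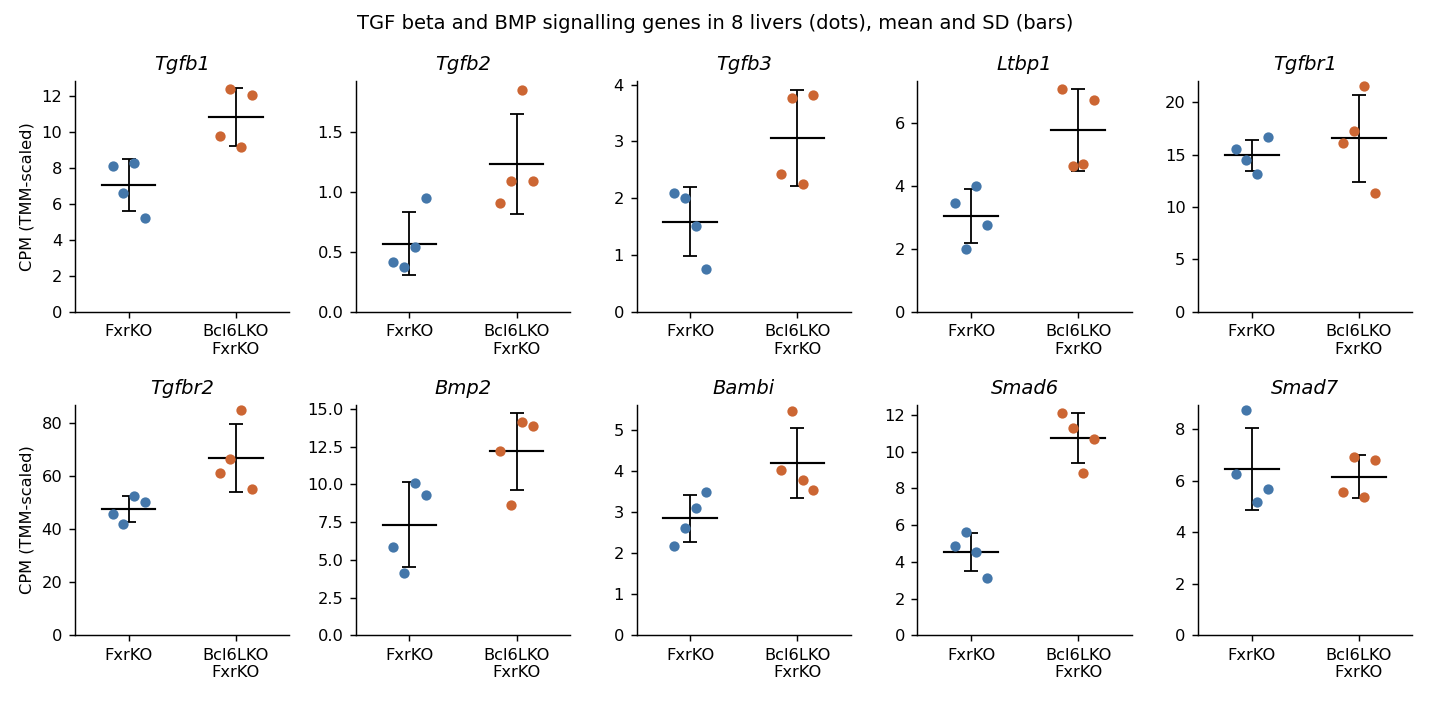
TMM-scaled CPM (vertical axes, each from 0) of the 10 genes in each of the 8 livers, with FxrKO in blue and Bcl6LKOFxrKO in orange. Dots are livers, the long line is the mean and the bars are 1 SD (n = 4). The groups are apart for Tgfb1, Tgfb3, Ltbp1, Tgfbr2, Bambi and Smad6, and overlap for Tgfb2, Tgfbr1, Bmp2 and Smad7.

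The stretch before the start site is shown for 3 of the 4 members called higher that had a RefSeq promoter at the start of the counted transcript: *Smad6*, with the largest change, and *Ltbp1* and *Tgfbr2*, which hold a Smad-type motif. A RefSeq promoter was matched for 6 of the 10 genes (*Tgfb1*, *Tgfb2*, *Ltbp1*, *Tgfbr1*, *Tgfbr2* and *Smad6*), in build GRCm38.p6. *Tgfb3* and *Bmp2* were not matched, and *Bambi* and *Smad7* were left out of the search. The motifs searched on both strands in the 250 bases before the start site were TTCNNNGAA, the core that BCL6 shares with STAT factors, CAGAC, the SMAD3 and SMAD4 box, and GGCGCC, a GC-rich element of the BMP Smads. No 2 matches overlapped. Capitals mark CAGAC, or GTCTG where it lies on the other strand, and all sequences run 5′ to 3′ on the strand of the gene.
*Smad6* (chr9:64022060-64022309, minus strand): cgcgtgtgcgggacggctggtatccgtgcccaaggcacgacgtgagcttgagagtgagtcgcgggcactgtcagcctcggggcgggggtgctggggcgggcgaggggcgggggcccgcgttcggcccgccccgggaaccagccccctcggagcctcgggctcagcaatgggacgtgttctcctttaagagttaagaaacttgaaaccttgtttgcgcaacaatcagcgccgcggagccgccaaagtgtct
*Ltbp1* (chr17:75178531-75178780, plus strand): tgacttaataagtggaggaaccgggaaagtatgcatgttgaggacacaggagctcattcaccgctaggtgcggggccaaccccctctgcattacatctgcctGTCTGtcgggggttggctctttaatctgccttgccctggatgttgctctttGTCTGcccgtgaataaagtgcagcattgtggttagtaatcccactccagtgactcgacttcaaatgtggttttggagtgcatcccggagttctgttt
*Tgfbr2* (chr9:116175364-116175613, minus strand): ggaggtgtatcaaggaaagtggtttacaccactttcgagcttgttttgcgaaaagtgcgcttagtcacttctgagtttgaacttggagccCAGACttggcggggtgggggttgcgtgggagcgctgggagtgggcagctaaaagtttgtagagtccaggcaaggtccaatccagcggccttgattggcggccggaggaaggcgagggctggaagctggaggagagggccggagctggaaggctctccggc
*Ltbp1* held CAGAC at 148 and 97 bases before the start, *Tgfbr2* once at 160 bases, and *Tgfb2* at 221 and 204 bases. *Tgfbr1* held GGCGCC once, at 233 bases before the start. None of the 6 windows held TTCNNNGAA, and those of *Smad6* and *Tgfb1* held none of the 3 motifs. Of the 32851 promoters of the same length in the table, 7.02% held TTCNNNGAA, 42.2% held CAGAC and 9.59% held GGCGCC. These matches describe the letters of these windows and no binding was measured.

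Among the TGF beta ligands, *Tgfb1* (chr7:25687002-25705077, plus strand, the transcript counted) was the most abundant per kilobase. Its level was 8.12, 6.62, 8.28 and 5.20 CPM in the 4 FxrKO livers and 9.77, 12.4, 9.16 and 12.1 CPM in the 4 Bcl6LKOFxrKO livers. Every double knockout liver was above every single knockout liver, with the closest pair at 8.28 and 9.16 CPM. The means were 7.05 ± 1.44 and 10.8 ± 1.62 CPM (SD, n = 4 each), a log2 fold change of 0.62 (SE 0.19, adjusted p = 0.0246, exact permutation p = 0.029). With 4 livers against 4, 0.029 is the smallest two-sided p that the 70 orderings of the livers allow.

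*Tgfb3* (chr12:86056743-86079041, minus strand), a ligand with the same receptors, was counted at a lower level, with 8 to 20 counts in FxrKO livers and 23 to 42 in Bcl6LKOFxrKO livers. It was at 2.08, 2.0, 1.5 and 0.757 CPM in FxrKO livers and at 2.42, 3.76, 2.24 and 3.81 CPM in Bcl6LKOFxrKO livers. The groups did not overlap, although 2.08 and 2.24 CPM lay close together. The log2 fold change was 0.96 (SE 0.33, adjusted p = 0.0442), with the widest interval of the 9 tested members, from 0.24 to 1.67. *Tgfb2* (chr1:186622792-186705989, minus strand), the third ligand, had only 4, 3, 5 and 10 counts in FxrKO livers and 9, 9, 19 and 12 counts in Bcl6LKOFxrKO livers. One FxrKO liver reached the low end of the double knockout livers. At this depth the difference did not reach the threshold in the exact permutation test (0.569 ± 0.261 against 1.23 ± 0.420 CPM, p = 0.057). When genes of any level were kept in the edgeR fit, 17796 genes were tested and the *Tgfb2* log2 fold change was 1.05. Its 95% interval was 0.13 to 1.97, with an unadjusted p of 0.0272 and an adjusted p of 0.0989, so it was not called.

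The mix of the 3 ligands stayed largely *Tgfb1*. Per kilobase of transcript, *Tgfb1* made up 84.3%, 82.1%, 87.4% and 85.4% of the summed ligand level in FxrKO livers and 83.5%, 81.1%, 80.5% and 80.6% in Bcl6LKOFxrKO livers. The groups overlapped, and the difference of -3.40 percentage points (84.8 ± 2.20% against 81.4 ± 1.40%, SD, n = 4) did not reach the threshold in the exact permutation test (p = 0.057).

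*Ltbp1* (chr17:75178781-75392512, plus strand) encodes a protein that binds latent TGF beta and anchors it in the matrix. It was at 3.43, 2.0, 3.98 and 2.74 CPM in FxrKO livers and at 7.05, 4.61, 4.68 and 6.72 CPM in Bcl6LKOFxrKO livers. All double knockout livers were higher, and 2 of them lay well above the other 2. The log2 fold change was 0.92 (SE 0.25, adjusted p = 0.0145, exact permutation p = 0.029), a 1.89-fold difference.

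Of the TGF beta receptors 1 was called. *Tgfbr2* (chr9:116087695-116175363, minus strand), which binds the ligand, was at 45.7, 41.9, 52.7 and 50.4 CPM in FxrKO livers and at 61.1, 66.5, 84.8 and 55.0 CPM in Bcl6LKOFxrKO livers. The groups did not overlap, and 1 double knockout liver stood well above the other 3. Its log2 fold change was 0.49 (SE 0.14, adjusted p = 0.0193), the smallest of the 6 called members at 1.40-fold, on the highest counts of the 10 genes (335 to 871 per liver). *Tgfbr1* (chr4:47353222-47414924, plus strand), the kinase partner, was at 15.5, 14.5, 13.1 and 16.7 CPM in FxrKO livers and at 16.1, 17.2, 21.5 and 11.4 CPM in Bcl6LKOFxrKO livers. The double knockout livers spanned the whole range of the FxrKO livers. The log2 fold change of 0.14 was not called (95% interval -0.24 to 0.53, adjusted p = 0.581, exact permutation p = 0.543). The change of *Tgfbr2* relative to *Tgfbr1* was not tested.

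*Bmp2* (chr2:133552159-133562896, plus strand), the BMP ligand among the members, was at 5.83, 4.12, 10.1 and 9.27 CPM in FxrKO livers and at 12.2, 8.62, 14.1 and 13.9 CPM in Bcl6LKOFxrKO livers. The second double knockout liver lay below 2 of the FxrKO livers. The log2 fold change was 0.73 (SE 0.26, adjusted p = 0.0485), just inside the threshold, and the exact permutation test on CPM gave p = 0.0857. *Bambi* was at 2.19, 2.62, 3.12 and 3.50 CPM in FxrKO livers and at 4.03, 5.46, 3.8 and 3.54 CPM in Bcl6LKOFxrKO livers. The groups did not overlap, but the closest livers, at 3.50 and 3.54 CPM, were almost level. The log2 fold change of 0.54 (95% interval 0.03 to 1.05) was not called after adjustment (adjusted p = 0.100).

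The inhibitory Smads parted. *Smad6* (chr9:63953076-64022059, minus strand) was at 4.89, 5.62, 4.51 and 3.12 CPM in FxrKO livers and at 12.1, 11.3, 8.86 and 10.7 CPM in Bcl6LKOFxrKO livers. The lowest double knockout liver was well above the highest FxrKO liver. The means were 4.54 ± 1.05 and 10.7 ± 1.37 CPM (SD, n = 4 each), a 2.38-fold difference (log2 fold change 1.25, SE 0.20, adjusted p = 0.00047, exact permutation p = 0.029). *Smad7* was at 6.24, 8.75, 5.16 and 5.68 CPM in FxrKO livers and at 5.54, 6.92, 5.36 and 6.81 CPM in Bcl6LKOFxrKO livers. The groups overlapped throughout, and the log2 fold change was -0.06 with a 95% interval from -0.50 to 0.37 (adjusted p = 0.844). That interval ends below the lower end of the *Smad6* interval, 0.82 to 1.68.

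The difference between the inhibitory Smads was tested directly as the share of *Smad6* in their summed level per kilobase. It was 54.0%, 49.0%, 56.7% and 45.1% in FxrKO livers and 76.5%, 70.9%, 71.2% and 70.2% in Bcl6LKOFxrKO livers. The single knockout livers were near an even mix and the double knockout livers were weighted to *Smad6*, with no overlap. The means were 51.2 ± 5.14% and 72.2 ± 2.92% (SD, n = 4), a difference of 21.0 percentage points (exact permutation p = 0.029). A share within a liver does not depend on how libraries are scaled to each other.

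**Figure D2:**
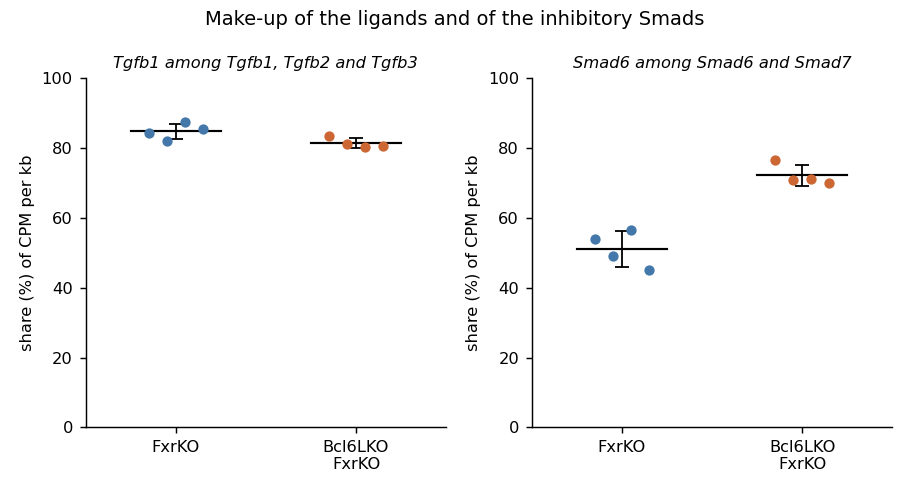
Share, in percent of the summed CPM per kilobase, of Tgfb1 among the 3 TGF beta ligands (left) and of Smad6 among the inhibitory Smads (right), in each liver (dots), with the mean (line) and 1 SD (bars, n = 4). The Tgfb1 shares run from 82.1% to 87.4% in FxrKO livers and from 80.5% to 83.5% in Bcl6LKOFxrKO livers and overlap, and the Smad6 shares run up to 56.7% in FxrKO livers and from 70.2% in Bcl6LKOFxrKO livers.

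Levels can be set beside each other between genes as CPM per kilobase of transcript. In FxrKO livers *Tgfbr2* led at 9.97 ± 1.01, followed by *Tgfb1* at 3.26, *Tgfbr1* at 2.60, *Bmp2* at 2.06, *Smad6* at 1.53 and *Smad7* at 1.46, where each overlapped the next from *Tgfb1* on. *Bambi*, *Ltbp1* and *Tgfb3*, between 0.470 and 0.567, overlapped one another below these, and *Tgfb2* was apart and lowest at 0.111. In Bcl6LKOFxrKO livers *Tgfbr2* was at 14.0 ± 2.69 and *Tgfb1* at 5.01 ± 0.748, each clear of the next gene. *Smad6* was then at 3.62, level with *Bmp2* at 3.43 and overlapping it, and *Tgfbr1* at 2.89 overlapped *Bmp2*. *Smad7* followed alone at 1.39, so that it no longer overlapped *Smad6*. *Ltbp1*, *Tgfb3* and *Bambi*, between 0.836 and 0.937, overlapped one another, and *Tgfb2* was again last at 0.242.

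**Figure D3:**
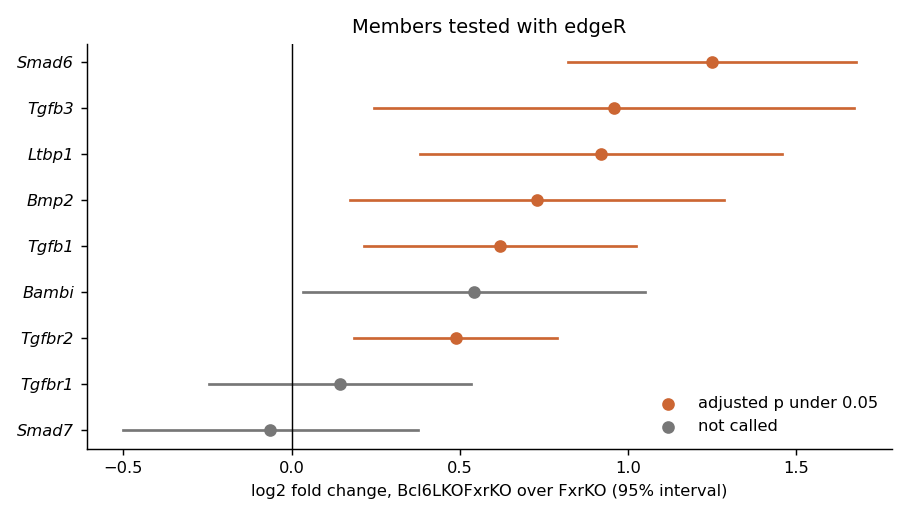
Log2 fold change (horizontal axis, Bcl6LKOFxrKO over FxrKO, edgeR) of the 9 tested genes with 95% intervals, in orange where the adjusted p was under 0.05 and in grey where it was not. Smad6 is at 1.25, and the intervals of Tgfbr1 and Smad7 include 0.

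How firmly each call stood varied. The fit was repeated with DESeq2, limma voom, other scalings and filters, and with each liver left out in turn. *Smad6* and *Ltbp1* were called in all 15 alternatives, with an adjusted p of at most 0.00228 and 0.0478. *Tgfb1* and *Tgfbr2* were called in 11 of 15, *Bmp2* in 8 of 15, and *Tgfb3* in 6 of the 14 that tested it. Without FxrKO liver 2, only 2 members were called. *Bambi*, *Tgfbr1* and *Smad7* were called in none.

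**Figure D4:**
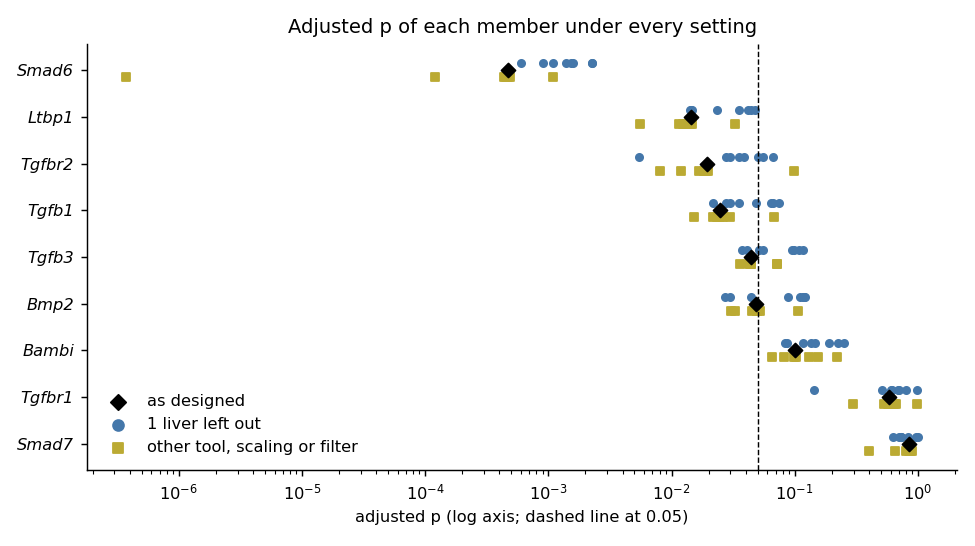
Adjusted p (horizontal log axis, dashed line at 0.05) of the 9 tested genes in the designed fit (black diamonds), with 1 liver left out (blue dots) and with another tool, scaling or filter (yellow squares). Every point of Smad6 and Ltbp1 is left of the line, and every point of Bambi, Tgfbr1 and Smad7 is right of it.

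Markers of other liver cell types differed in how many were higher in the double knockout livers, to be read against the 16.2% of all tested genes called higher. Of the 19 stellate cell and myofibroblast markers, all tested, 16 were called higher and 0 lower, and their summed level ran from 382 to 496 CPM in FxrKO livers and from 742 to 830 CPM in Bcl6LKOFxrKO livers. Of these 19, 6 also stand on the pathway lists below (*Acta2*, *Col1a1*, *Col1a2*, *Col3a1*, *Dcn* and *Tagln*), and 12 of the other 13 were called higher. The summed level includes these 6, among them *Dcn* with means of 104 and 215 CPM and *Col3a1* with 47.7 and 90.2 CPM. Of 18 liver endothelial markers 4 were called higher (326 to 435 against 442 to 555 CPM), *Eng* and *Bmp6* among them. Both are also pathway genes, and without them 2 of 16 were called higher. The sums hold both genes. The closest sums, 435 and 442 CPM, differ by less than the mean *Eng* levels, 55.0 and 75.0 CPM. The sums therefore do not show the other 16 markers to be apart. Of 16 Kupffer cell and macrophage markers 6 were called higher (573 to 792 against 814 to 1323 CPM). Of the 8 cholangiocyte markers tested 3 were called higher, with overlapping sums (124 to 193 against 192 to 299 CPM). Lymphocyte markers were low, at 2.0 to 3.01 against 5.64 to 9.17 CPM for T cells, where the 1 gene tested was higher, and at 3.78 to 6.77 against 4.13 to 12.5 CPM for B cells, where neither of the 2 tested was called. No marker was at 0 in all 8 livers, and *Cftr* had at most 3 counts in any. The hepatocyte sum, 66644 to 78179 against 151089 to 175639 CPM, was mostly *Alb*, the 1 marker of 9 called higher, while 3 (*Apob*, *Ttr* and *Pck1*) were lower. The median log2 fold change was 0.91 for stellate cell markers, 0.35 for endothelial and 0.42 for macrophage markers, beside 0.62 for the members. The part of cell makeup in the members' differences was not tested.

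The rest of the pathway was described from 8 lists by role, 147 genes in all. Of these, 110 were tested, and their median log2 fold change was 0.46, with 37 called higher and 12 lower (29 and 18 with libraries scaled by total counts alone). That is 33.6% called higher and 10.9% lower, beside 16.2% and 13.5% over all tested genes, and 10 genes stand on more than 1 list. A gene could pass the count filter through the group where it was high. With at least 10 counts required in every liver, 30 were called higher and 10 lower. Over the 11093 genes then tested it was 1700 and 1403. The number of pathway genes tested in that fit was not counted, so 30 and 10 cannot be read as shares. *Bmp7*, *Inhbb*, *Rgma*, *Fstl3*, *Snai1*, *Trim62* and *Smad9* were not tested in that fit. The direction was not the same in every role.

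Among the other ligands 8 of 13 tested were higher and 1 lower, with a median of 0.85. *Bmp7*, a BMP ligand known for opposing TGF beta in fibrosis models, was at 1.14, 1.0, 1.18 and 1.23 CPM in FxrKO livers and at 9.67, 10.4, 6.14 and 13.6 CPM in Bcl6LKOFxrKO livers. All 4 double knockout livers were far above the narrow range of the others (log2 fold change 3.11, SE 0.28, adjusted p = 4e-06). *Inhbb*, an activin subunit, rose from 1.43 ± 0.381 to 5.35 ± 0.591 CPM (1.88 on the log2 scale, SE 0.24), and *Gdf10*, a BMP-like ligand, from 13.2 ± 2.70 to 26.7 ± 3.33 CPM (1.01, SE 0.16). *Inhbc*, an activin subunit made by hepatocytes, fell from 86.5 ± 12.2 to 47.7 ± 5.58 CPM (-0.86, SE 0.13). The other genes called higher were *Bmp5*, *Bmp6*, *Gdf2*, *Gdf6* and *Nodal*. *Gdf6* had 3 to 12 counts in FxrKO livers and 13 to 17 in Bcl6LKOFxrKO livers. *Nodal* had 0 to 7 and 15 to 19, so both calls rest on very few counts. *Bmp7* and *Inhbb* also fell below 10 counts in FxrKO livers, with as few as 8 and 9. These genes could pass the count filter through the double knockout livers. The list's count of 8 higher and its median of 0.85 include them and were not computed without them. *Bmp4*, the closest relative of *Bmp2*, was not called (log2 fold change 0.27, 95% interval -0.44 to 0.98, adjusted p = 0.567).

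The other receptors and coreceptors were split, with 4 of 14 higher, 4 lower and a median of -0.11. The coreceptors *Eng* (55.0 ± 5.14 to 75.0 ± 8.80 CPM) and *Rgma* (0.643 ± 0.151 to 2.51 ± 0.425 CPM) and the type I receptor *Acvrl1* (3.87 ± 0.943 to 6.80 ± 1.78 CPM) were higher. The log2 fold changes were 0.45, 1.94 and 0.81, and the livers overlapped for *Acvrl1*, which lost its call with limma voom (adjusted p = 0.0531) and in 5 of the 8 fits that left out 1 liver (up to 0.0725). ENG and ACVRL1 form a receptor for BMP9, the product of *Gdf2*, on endothelial cells. The activin receptors *Acvr2b* (13.9 ± 4.33 to 5.37 ± 2.09 CPM, -1.38) and *Acvr2a* (12.0 ± 1.28 to 8.32 ± 1.37 CPM, -0.53) and the RGM receptor *Neo1* (19.0 ± 2.08 to 13.0 ± 1.98 CPM, -0.55) were lower. *Acvr2a* lost its call in 5 of the 8 fits that left out 1 liver (adjusted p up to 0.0758). *Eng* overlaps *Fpgs*, which had more counts, on the opposite strand, and *Acvr2a* overlaps *Orc4*, so reads could be shared where strand was not used.

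None of the Smads that carry the signal was called higher. All 6 were tested, 0 were called higher and 2 were lower, with a median of -0.33. At an unadjusted p under 0.05, 0 were higher, and all 6 log2 fold changes were below 0. Over all tested genes 16.2% were called higher, 13.5% lower, and 51.0% had a log2 fold change above 0. With only 6 genes, 0 called higher is not far from that share. *Smad9*, of the BMP arm, was at 6.24, 4.25, 9.99 and 7.76 CPM in FxrKO livers and at 0.604, 4.0, 1.36 and 1.18 CPM in Bcl6LKOFxrKO livers. The groups did not overlap, with 1 double knockout liver close to the lowest FxrKO liver (log2 fold change -2.04, SE 0.45, adjusted p = 0.00602). *Smad5*, also of the BMP arm, fell from 28.1 ± 2.32 to 21.9 ± 2.82 CPM (-0.36, adjusted p = 0.0491), but lost its call in 9 of 15 alternatives, among them 7 of the 8 that left out 1 liver (adjusted p up to 0.135). *Smad1*, *Smad2*, *Smad3* and *Smad4* had log2 fold changes between -0.36 and -0.15 and were not called.

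In latency and activation, 5 of 11 tested were higher and 1 lower, with a median of 0.55. *Ltbp3*, a relative of *Ltbp1*, rose from 3.27 ± 0.993 to 7.21 ± 0.505 CPM (1.12), *Fbn1*, which builds the microfibrils to which LTBPs attach, from 2.21 ± 0.869 to 5.66 ± 1.26 CPM (1.34), and *Emilin1*, which blocks processing of the TGF beta precursor, from 21.5 ± 1.88 to 44.8 ± 8.83 CPM (1.06). *Ltbp4* and *Lrrc32* were also called, so that 3 LTBP genes were higher. *Bmp1*, a protease that cleaves LTBP1, was lower (-0.59). The level of *Ltbp3* is uncertain where strand was not used in counting.

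Among extracellular antagonists 4 of 11 tested were higher and 1 lower, with a median of 0.84. Of the 11, 6 had a log2 fold change above 0 and 5 below. *Fstl3*, which binds activins, had 1, 2, 3 and 4 counts in FxrKO livers and 39, 28, 39 and 54 counts in Bcl6LKOFxrKO livers (adjusted p = 4.39e-06), so its fold change rests on very few FxrKO counts. It overlaps *Prss57* on the opposite strand. The small proteoglycans *Dcn* (104 ± 19.8 to 215 ± 24.5 CPM, 1.05) and *Bgn* (79.3 ± 7.39 to 155 ± 21.4 CPM, 0.97), which bind TGF beta, were higher, and *Tsku*, a secreted proteoglycan, was lower (187 ± 78.1 to 62.6 ± 29.4 CPM, -1.58).

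The intracellular regulators lay nearest to the background, with 4 of 25 higher, 2 lower and a median of 0.12. *Ski*, a corepressor of Smads, was higher (28.5 ± 6.25 to 50.9 ± 11.9 CPM, 0.83), as were *Tab1* (0.81), which activates the kinase TAK1, and *Trim62* (0.94). *Map3k7*, which encodes TAK1, was lower (-0.50), as was *Rbx1* (-0.41), a subunit of ubiquitin ligases.

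Of the genes known to respond to TGF beta, 12 of 29 tested were higher and 1 lower, with a median of 0.73. The 3 with the smallest adjusted p were *Tgfbi* (1.33), *Col4a1* (1.41) and *Snai1* (1.44), a transcription factor at 0.747 ± 0.179 and 2.06 ± 0.504 CPM. *Col4a1* overlaps *Col4a2* on the opposite strand. *Fn1*, fibronectin, which hepatocytes also secrete, was lower (1651 ± 253 to 937 ± 269 CPM, -0.82). *Ctgf*, a matricellular response gene, was not called, at 13.9 ± 5.97 and 16.4 ± 6.90 CPM (95% interval of the log2 fold change -0.54 to 1.05).

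Of the genes known to respond to BMP, 2 of 9 tested were higher and 1, *Smad9*, lower, with a median of 0.92. Of the 9, 7 had a log2 fold change above 0 and 2 below. *Id1*, a direct target of the BMP Smads, was at 4.16, 4.25, 1.29 and 2.65 CPM in FxrKO livers and at 21.4, 18.8, 13.4 and 26.7 CPM in Bcl6LKOFxrKO livers. Every double knockout liver was far above the FxrKO livers (log2 fold change 2.71, SE 0.31, adjusted p = 5.58e-05). *Id2* and *Id3*, of the same family, were not called, with log2 fold changes of -0.77 and 0.79 and overlapping groups. *Hamp2*, one of the hepcidin genes, was at 13.9, 39.4, 104 and 50.6 CPM in FxrKO livers and at 555, 598, 457 and 626 CPM in Bcl6LKOFxrKO livers (3.43, SE 0.55, adjusted p = 0.00311). The hepcidin hormone gene *Hamp* was at 37.2 to 147 CPM in FxrKO livers and at 28.3 to 166 CPM in Bcl6LKOFxrKO livers and was not called (0.08, 95% interval -1.45 to 1.60). *Hamp* and *Hamp2* are near-identical copies counted from uniquely aligned reads, so the split between them is uncertain.

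**Figure D5:**
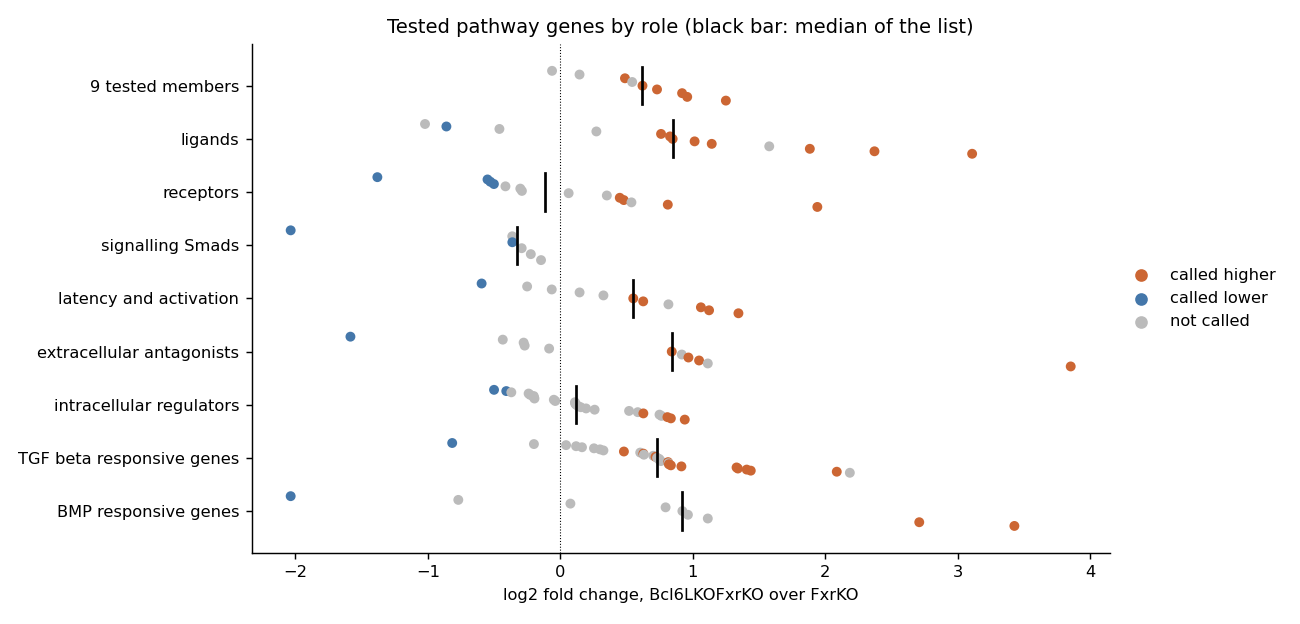
Log2 fold change (horizontal axis, Bcl6LKOFxrKO over FxrKO) of each tested gene, by role, with genes called higher in orange, lower in blue and not called in grey, and the median of each list as a black bar. The members (median 0.62) and the other ligands (0.85) lie mostly above 0, and all 6 signalling Smads lie below it.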

How the data were processed

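RNA was measured as poly(A) RNA-seq in 8 livers, each from a separate mouse. Per the file headers and the study's methods, the authors aligned reads to mm10 with STAR 2.5.2, keeping uniquely aligned reads, and deposited raw counts of reads on the exons of 1 transcript per gene, made with HOMER 4.10 without adjustment for depth. The library kit was stranded, but the counting command names no strand option. The deposited file also gives the transcript length, used for CPM per kilobase. Counts of 24940 genes were tested here in R 4.3.3 with edgeR 4.0.16 (filterByExpr, TMM, robust quasi-likelihood test, Benjamini-Hochberg adjustment over 12340 genes, called at an adjusted p under 0.05), after a check on simulated counts. Standard errors were derived from the F statistic. DESeq2 1.42.0, limma 3.58.1 voom, other scalings and filters and leaving out each liver were alternatives. Exact two-sided permutation tests used all 70 orderings of the livers. Between livers of a genotype, chi-square per degree of freedom was 10.7 to 49.3, so none was a repeat of another. Groups came from the genotype labels, which give no pairs. All members were named, and of each list the 3 called genes ranked first by adjusted p among those higher and among those lower. Further genes (*Smad1* to *Smad4*, *Id2*, *Id3*, *Hamp*, *Ctgf*, *Bmp4*, *Gdf6*, *Nodal*, and those called but named without values) were added with their values seen. Members and lists were chosen with earlier results of these data known. The listed symbols *Tf* and *Trac* were not matched.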

Additional observations from a re-analysis of the deposited data

Results flagged for a closer look

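In 86 groups of 4 livers, the highest or lowest liver was compared with the other 3, and chance flags about 1 in 20 such groups. The groups were each member, each pathway gene named by rule and each share, in each genotype. Genes named outside the rule were not examined. For 3 of them the gap to the nearest liver, as a part of the range of the group, was above the 95% critical value of Dixon's test (ratios of 0.899, 0.832 and 0.836). *Acvr2b* was at 8.49 CPM in Bcl6LKOFxrKO liver 2, where the other 3 livers were at 4.09 to 4.53 CPM. *Emilin1* was at 18.7 CPM in FxrKO liver 3, where the others were at 22.1 to 22.7 CPM. The share of *Smad6* among the inhibitory Smads was 76.5% in Bcl6LKOFxrKO liver 1 and 70.2% to 71.2% in the others. Without that liver the difference in share between genotypes was 19.6 percentage points (exact permutation p = 0.029).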

How the results depend on the processing

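The number of members called higher was 6, and it fell to 2 when libraries were scaled by total counts alone, which moved the median log2 fold change of all genes by -0.16. It ran from 2 to 5 with 1 liver left out, lowest without FxrKO liver 2, and from 5 to 6 with the other tools, scalings, filters and fold thresholds. The fits with 1 liver left out have fewer livers, and the cause of their lower numbers was not tested. No setting called a member lower. The other pathway genes called higher ran from 28 to 44 and those lower from 9 to 18, the last with total counts alone.

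Signs changed in 2 members that were not called. *Tgfbr1* had a log2 fold change of -0.0097 with total counts alone and -0.0086 to 0.29 with 1 liver left out, lowest without Bcl6LKOFxrKO liver 3. *Smad7* ran from -0.16 to 0.11 with 1 liver left out, at 0.11 without FxrKO liver 2 and 0.00057 without Bcl6LKOFxrKO liver 3. Of all values of single members under the alternatives, 107 kept direction and call, 23 lost the call and 4 changed sign. For the 31 other pathway genes named by rule, 432 values kept both, 26, in 6 genes (*Acvr2a*, *Acvrl1*, *Eng*, *Smad5*, *Trim62* and *Tsku*), lost the call and 0 changed sign. Genes named outside the rule are not among these values. *Tgfb1* lost its call without FxrKO liver 2 or 4 or Bcl6LKOFxrKO liver 2 (adjusted p up to 0.075), and *Tgfbr2* without FxrKO liver 1 or 2 or Bcl6LKOFxrKO liver 3 (up to 0.0664). *Tgfb3* and *Bmp2* lost theirs in 6 and 5 of the 8 fits with 1 liver left out. The *Smad6* share difference ran from 19.0 to 22.9 percentage points and that of *Tgfb1* from -4.30 to -2.54. No paired analysis was possible because the labels pair no livers. Depth limits *Tgfb2*, *Tgfb3* and *Fstl3*, which had as few as 3, 8 and 1 counts, and other called genes. Of these, *Nodal*, *Gdf6*, *Rgma*, *Smad9*, *Bmp7*, *Trim62* and *Inhbb* had as few as 0, 3, 5, 6, 8, 8 and 9 counts.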
